A study of Mus musculus with 16 samples.

Results

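Messenger RNA was measured by sequencing in cultured chondrocytes from mouse joint cartilage, and 45 genes of DNA replication and S phase, the part of the cell cycle in which the genome is copied, were followed across 4 treatments. They were picked by symbol for their known role and make up 45 of the 55450 genes in each table. All 45 are protein-coding, and their coordinates below are on GRCm38 as annotated by GENCODE. The cells were primary cultures from an organism given only as Mus musculus, with no strain, age or sex in the labels, grown in 10% fetal bovine serum and an atmosphere of 3% oxygen. Each of the 4 groups held 4 libraries. The vehicle group received an equal volume of saline (PBS) for 24 h. Bleomycin, an antibiotic that breaks DNA strands, was used at 50 µg/mL for 24 h and was followed by 5 days in fresh medium. Those cells alone are stated to have had hyaluronidase type I-S at 4 U/mL for 4 h without serum beforehand. Doxorubicin, an anthracycline that poisons topoisomerase II, was present for 5 days at 50 nM, and the medium was renewed every 48 h. Interleukin-1 beta (IL-1β), an inflammatory cytokine, was present at 1 ng/mL for 24 h and serves in the study as a model of acute stress, whereas both drugs serve as inducers of senescence, a lasting exit from the cell cycle. The labels give no day of harvest for the vehicle and do not say whether the vehicle saw hyaluronidase, so drug, time in culture and handling cannot be told apart in the comparisons with vehicle. They also do not say whether the 4 libraries of a group came from separate animals or cultures, so the p-values below measure the spread between these libraries, which may be technical.

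Levels are in FPKM, fragments per kilobase of gene length scaled to the mapped fragments of a library, as the authors computed them. The estimated depth was 15900000 to 22100000 fragments per library, and 12014 to 12481 genes per library had at least 1 FPKM. The FPKM values of the IL-1β libraries summed to 521294 to 559190, those of the other libraries to 405159 to 423830. The 10 markers of chondrocytes that were checked were all present, with summed levels of 11583 to 15121 FPKM in vehicle, 8537 to 11179 in bleomycin, 8402 to 11053 in doxorubicin and 5224 to 5536 in IL-1β. Col2a1 made up most of these sums. The mean of Comp was above vehicle in both drugs (934 FPKM in vehicle, 1450 in bleomycin and 1065 in doxorubicin) and below it in IL-1β. That of Sox5 was above vehicle in every treatment (6.38 in vehicle, 7.70 in bleomycin, 7.51 in doxorubicin and 7.22 in IL-1β). The means of the other chondrocyte markers were below vehicle in every treatment. Of 8 macrophage markers 5 were below 1 FPKM in every library (Adgre1, Cd163, Csf1r, Itgam and Ptprc), and the summed level of the list was 7.87 to 10.2 FPKM in vehicle, 15.4 to 17.1 in bleomycin, 18.1 to 23.1 in doxorubicin and 28.6 to 34.3 in IL-1β. All 5 endothelial markers were below 1 FPKM. Summed levels of 7 adipocyte markers, mostly Fabp4, were 38.0 to 43.2 FPKM in vehicle, 77.0 to 88.1 in bleomycin, 157 to 205 in doxorubicin and 371 to 410 in IL-1β. Unlike Fabp4, the markers Adipoq, Cfd and Plin1 were highest in doxorubicin and near 0 in vehicle and IL-1β, with Adipoq means of 0.104 FPKM in vehicle, 4.06 in bleomycin, 13.9 in doxorubicin and 0.0429 in IL-1β. The means of Lpl, Cebpa and Pparg were above vehicle in every treatment. In the same order they were 3.21, 7.13, 13.4 and 11.9 for Lpl, 2.23, 3.89, 5.11 and 4.09 for Cebpa, and 3.93, 5.80, 5.43 and 7.42 for Pparg. The summed levels of 6 synovial fibroblast markers, of which Dpp4 and Pi16 were below 1 FPKM, were 56.1 to 84.9, 116 to 147, 164 to 219 and 120 to 147 in the same order. The means were 21.1, 55.6, 97.4 and 38.1 for Prg4 and 23.8, 42.1, 45.2 and 74.6 for Pdpn. Those of Cd34 (10.6, 15.0, 21.4 and 10.5) and Thy1 (14.5, 14.2, 22.4 and 7.51) did not rise in every treatment. For 4 tendon markers the sums were 51.8 to 67.0, 24.6 to 33.4, 37.4 to 47.3 and 23.3 to 31.5. The tendon marker Scx did not follow these sums, with means of 12.9, 13.9, 14.1 and 14.0. For 6 muscle markers, 4 of them below 1 FPKM, the sums were 3.66 to 5.52, 3.83 to 5.66, 3.94 to 6.37 and 1.72 to 3.05. These lists moved with the treatments, and their part in the results below was not tested.

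To copy a chromosome once per cycle, a cell first licenses its origins in G1: the origin recognition complex, CDC6 and CDT1 load the ring-shaped MCM helicase onto DNA. At the start of S phase, CDC45 and the GINS complex join MCM to form the active helicase. Primase lays down RNA primers, and the polymerases alpha, delta and epsilon extend them. Delta and epsilon are held by the PCNA clamp that the RFC clamp loader places on DNA. Most of these genes are classic targets of the E2F transcription factors, which the RB family of proteins holds inactive until cyclin E with CDK2 and other kinases release them. In the joint, chondrocytes rarely divide, but in serum-fed culture they enter the cycle.

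Across the 45 genes, the bleomycin libraries were lower than vehicle and the doxorubicin libraries were lower still, while the IL-1β libraries lay just below or within the vehicle range. For each library, the median over the 45 genes of the log2 ratio to the vehicle mean, on the log2(FPKM + 1) scale, was 0.08, 0.06, -0.11 and -0.00 in the vehicle libraries. It was -0.54, -0.55, -0.59 and -0.61 in bleomycin, -0.95, -0.93, -0.99 and -0.95 in doxorubicin, and -0.09, -0.17, -0.15 and -0.13 in IL-1β. Neither the bleomycin nor the doxorubicin values overlapped with vehicle or with each other. Every doxorubicin library had all 45 genes below the vehicle mean, whereas 40 to 43 of them were below it in the bleomycin libraries. In vehicle libraries 1 to 4 themselves 10, 11, 40 and 24 genes were below it, and in IL-1β 25 to 31 were. By this count alone, vehicle library 3 therefore does not stand apart from bleomycin. The same count over all tested genes was not made. The level of 4 general proliferation markers (Mki67, Top2a, Ccnb1 and Cdk1) summed to 104 to 126 FPKM in vehicle, 59.4 to 63.1 in bleomycin, 42.3 to 47.6 in doxorubicin and 89.8 to 102 in IL-1β. These sums were mostly Top2a and Cdk1. Mki67 had means of 4.81, 2.21, 1.46 and 5.82 FPKM in the same order, highest in IL-1β, and its vehicle and bleomycin libraries overlapped. In bulk RNA, fewer cycling cells and less of each messenger RNA per cell cannot be told apart.

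**Figure D1:**
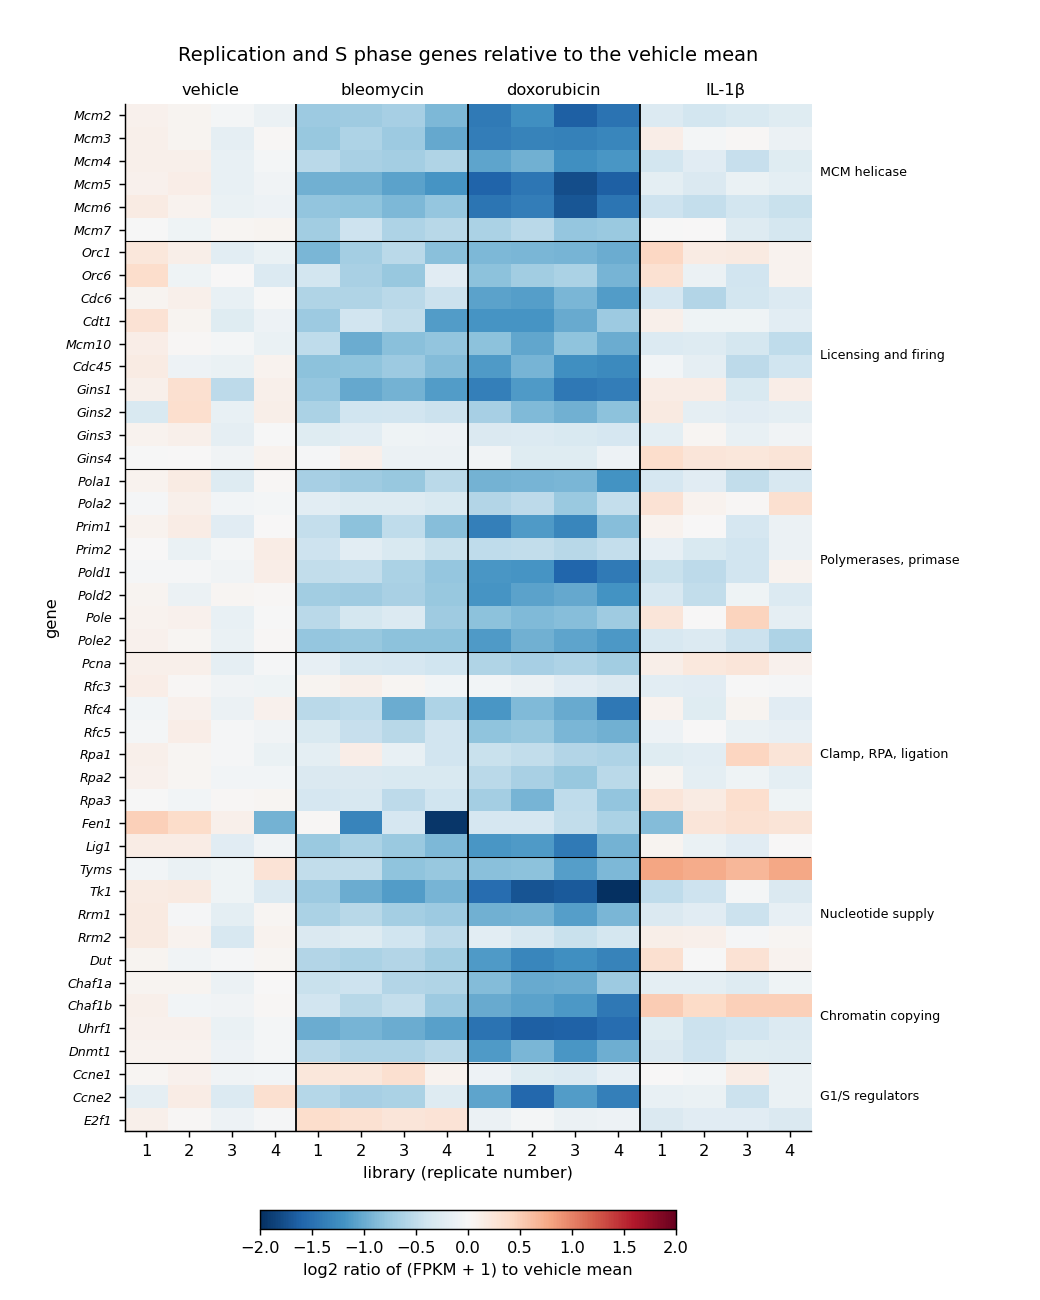
Colour shows the log2 ratio of (FPKM + 1) in each of the 16 libraries (columns, grouped by treatment) to the vehicle mean, for the 45 genes (rows, ordered by role), with blue for lower and red for higher. The library medians are -0.54 to -0.61 in bleomycin, -0.93 to -0.99 in doxorubicin and -0.09 to -0.17 in IL-1β, and the rows of Tyms, Chaf1b and Gins4 are red in IL-1β while those of E2f1 and Ccne1 are red in bleomycin.

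All 45 genes passed the filter on low values and were tested among 12976 genes with limma, a linear model fitted to all 16 libraries with the spread moderated across genes. A gene was called at a Benjamini-Hochberg adjusted p under 0.05. Against vehicle, 38 of the 45 were called lower in bleomycin, where 19.0% of all tested genes were called lower, and 2 were called higher, where 27.9% of all tested genes were. In doxorubicin 42 were called lower, beside 22.8% of all tested genes, and 0 were called higher, beside 25.4% (0 also at an unadjusted p under 0.05). At an adjusted p under 0.05, 21 of the 42 had fallen by at least 1 (log2) in doxorubicin, beside 1.87% of all tested genes. In bleomycin 1 of the 38 had, beside 0.840%. These cuts are on the log2(FPKM + 1) scale, which makes falls of low genes smaller. Orc1, for example, had a 2.78-fold lower mean FPKM in doxorubicin at a log2 difference of -0.93. The median log2 difference of the 45 genes was -0.60 in bleomycin and -0.98 in doxorubicin, against 0.06 and 0.02 over all tested genes. Both drug comparisons share the same 4 vehicle libraries. In 27 of the 45 genes the 4 vehicle libraries lay above all bleomycin libraries and these above all doxorubicin libraries, a pattern that 2.94% of all tested genes showed.

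**Figure D2:**
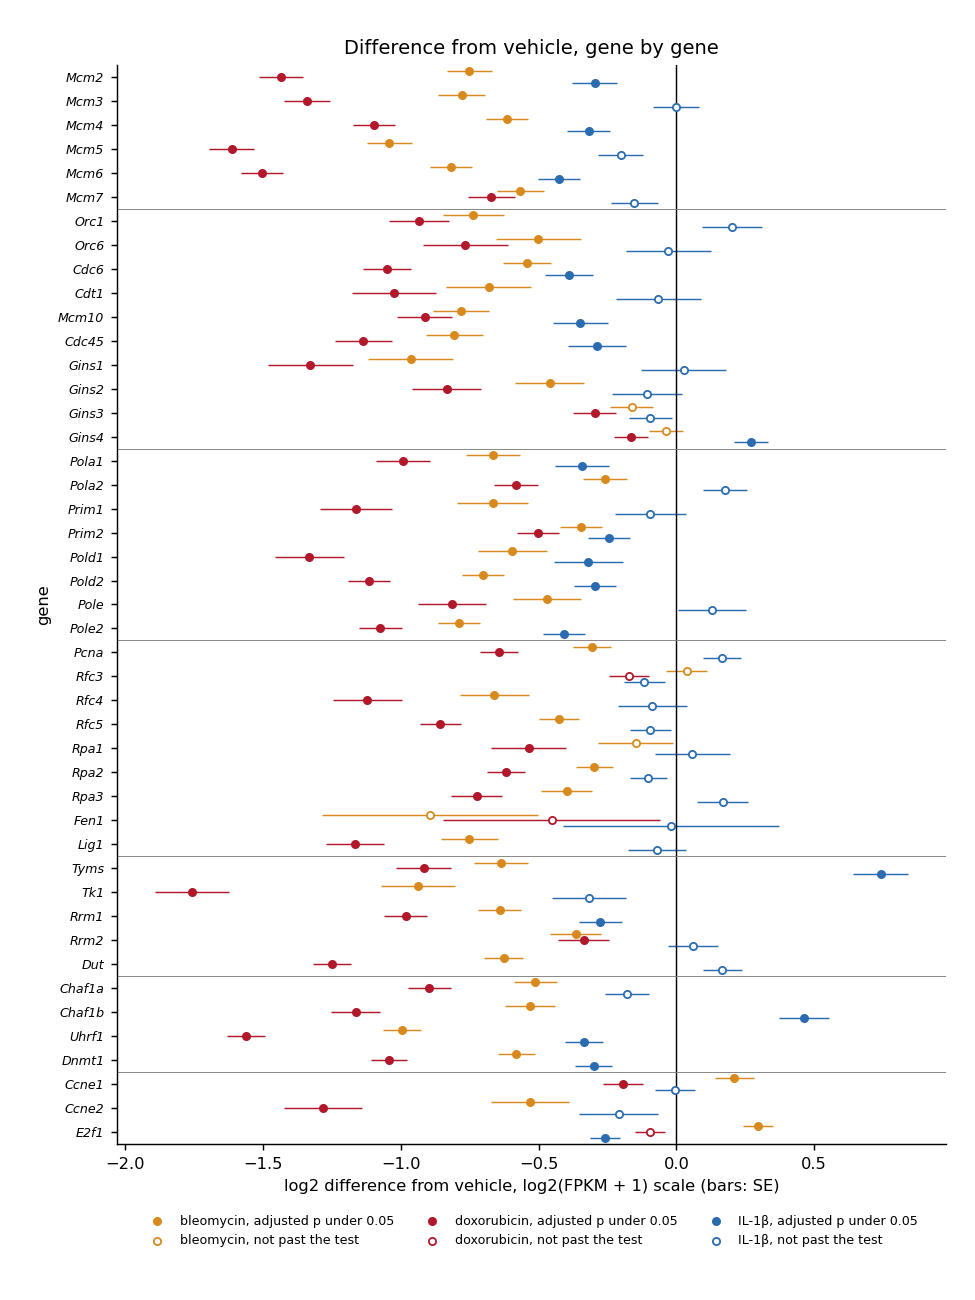
Points give the log2 difference from vehicle of each gene (rows) in bleomycin, doxorubicin and IL-1β, on the log2(FPKM + 1) scale with standard errors as bars, filled where the adjusted p was under 0.05 and open where it was not. In doxorubicin 42 of 45 points are filled and left of 0, in bleomycin 38, and in IL-1β 15, with 3 filled points right of 0.

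The E2F background makes the promoters of these genes of interest, so sequence windows were searched for E2F-type letters. Promoter windows from RefSeq on GRCm38.p6, 250 bases before to 50 after an annotated start, were found for 38 of the 45 genes, 46 windows in all. Those not matched were Gins1, Gins2, Gins4, Mcm4, Ccne2, Pole and Prim2. One of TTTCCCGC, TTTGGCGC, TTTCGCGC or TTTGCCGC, on either strand, was present in 15 of the 46 windows (32.6%), each of a different gene. The share was 3.94% of the 12361 windows of tested genes and 2.26% of all 32851 windows. CCAAT, the letters read by the factor NF-Y, occurred in 56.5% of the member windows and in 37.6% of those of tested genes. TTTGAA, the cell cycle homology element common at late cycle genes, occurred in 13.0% and 11.9%. In doxorubicin the median log2 difference was -1.05 for the 15 genes with an E2F-type match, -0.90 for the 23 genes with a window but no match and -0.83 for the 7 genes without a window. The 3 sets spanned -1.61 to -0.17, -1.76 to -0.10 and -1.33 to -0.17, so they overlapped over most of their range. In 14 windows of 11 genes the annotated start lay over 100 bases inside the gene as GENCODE draws it, among them the only window of E2f1, so an absent match says only that these letters are not in that window. A match is likewise a description of the letters and was not measured as a bound site. The 4 windows below show the contrast between letters and levels: Mcm5 and Mcm6 hold matches and fell in both drugs, Rfc3 holds matches and was called in no comparison, and Tyms holds none, fell in both drugs and rose in IL-1β. They are printed 5′ to 3′ along the gene's strand from 250 bases before to 30 after the start, 280 bases each, with E2F-type matches in capitals, some of which overlap each other on opposite strands.
Mcm5 (chr8:75109259-75109538, plus strand): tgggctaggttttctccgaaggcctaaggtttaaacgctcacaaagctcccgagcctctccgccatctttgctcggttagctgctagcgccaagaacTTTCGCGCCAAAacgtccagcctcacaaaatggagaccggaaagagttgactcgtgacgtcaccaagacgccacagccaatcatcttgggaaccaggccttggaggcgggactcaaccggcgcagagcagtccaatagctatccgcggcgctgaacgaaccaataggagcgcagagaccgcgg
Mcm6 (chr1:128359676-128359955, minus strand): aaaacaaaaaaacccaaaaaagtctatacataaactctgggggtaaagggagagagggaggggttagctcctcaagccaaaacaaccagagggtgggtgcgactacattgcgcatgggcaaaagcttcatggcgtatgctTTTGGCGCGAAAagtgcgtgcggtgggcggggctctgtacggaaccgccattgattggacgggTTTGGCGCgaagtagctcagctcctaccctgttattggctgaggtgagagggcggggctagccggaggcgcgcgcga
Rfc3 (chr5:151651179-151651458, minus strand): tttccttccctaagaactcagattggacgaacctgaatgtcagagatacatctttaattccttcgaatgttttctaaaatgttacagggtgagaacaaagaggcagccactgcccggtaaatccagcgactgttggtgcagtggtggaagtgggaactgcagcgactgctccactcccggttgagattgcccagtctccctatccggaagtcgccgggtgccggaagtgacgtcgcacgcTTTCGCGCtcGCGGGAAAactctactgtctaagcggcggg
Tyms (chr5:30073596-30073875, minus strand): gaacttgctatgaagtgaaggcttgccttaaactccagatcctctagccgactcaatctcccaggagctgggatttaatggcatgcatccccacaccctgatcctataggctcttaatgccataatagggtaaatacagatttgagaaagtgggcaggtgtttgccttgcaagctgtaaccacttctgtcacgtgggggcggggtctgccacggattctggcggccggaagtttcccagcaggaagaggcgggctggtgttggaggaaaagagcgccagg

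**Figure D3:**
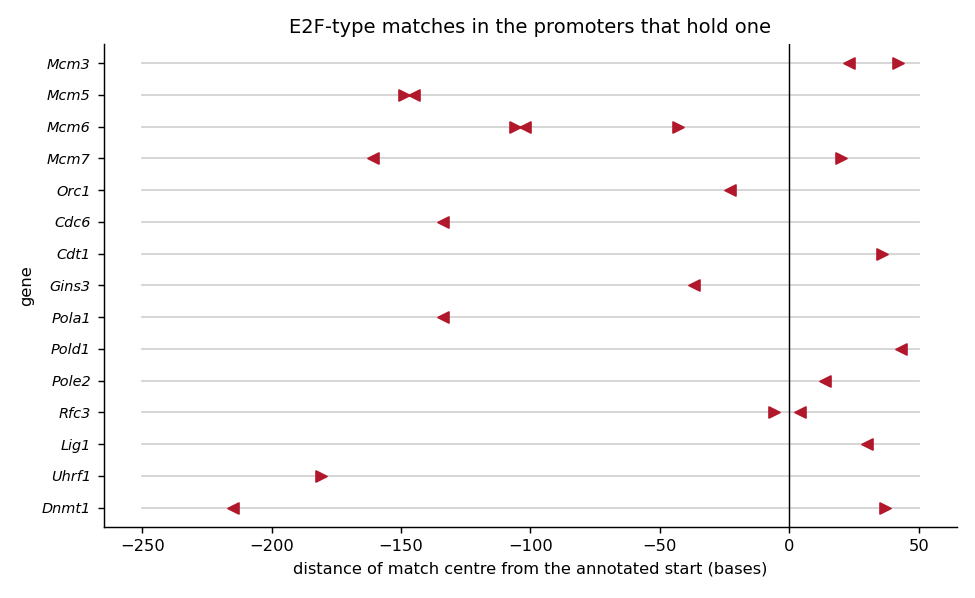
Each triangle is an E2F-type match, placed by the distance of its centre from the annotated start in bases and pointing right for the gene's strand and left for the opposite strand, for the 15 genes (rows) with a match. Of the 22 matches 13 lie from 100 bases before to 50 after the start, in windows that run from 250 before to 50 after it. Matches that overlap on opposite strands are counted separately, and whether matches gather near the start was not tested.

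MCM2 to MCM7 are the 6 subunits of the replicative helicase, and all 6 genes were called lower in both drugs. Of all tested genes, 19.0% were called lower in bleomycin and 22.8% in doxorubicin. The share called lower in both was not counted, here or for the role groups below. The largest difference from vehicle in doxorubicin within the ring was that of Mcm5 (ENSMUSG00000005410.6, chromosome 8, 75109569 to 75128439). Mcm5 stood at 30.1, 31.0, 25.3 and 27.0 FPKM in vehicle libraries 1 to 4, at 14.0, 14.1, 12.9 and 11.96 in bleomycin, at 8.60, 9.78, 7.52 and 8.43 in doxorubicin and at 24.7, 22.9, 25.7 and 24.5 in IL-1β. The 3 groups vehicle, bleomycin and doxorubicin did not overlap, and IL-1β straddled the lower edge of vehicle. The mean of Mcm5 was 2.14 times lower in bleomycin (log2 difference -1.04 ± 0.08 (SE), adjusted p = 4.53e-08) and 3.30 times lower in doxorubicin (-1.61 ± 0.08, adjusted p = 2.58e-10). In IL-1β its difference of -0.20 ± 0.08 did not pass the test (adjusted p = 0.0532), but it did without vehicle replicate 3 (the lowest adjusted p with 1 library left out, 0.0228).

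Mcm7 (ENSMUSG00000029730.16, chromosome 5, 138164583 to 138172422) had the smallest difference of the ring in doxorubicin. It stood at 29.6, 27.9, 30.6 and 30.7 FPKM in vehicle, 17.9, 22.1, 19.0 and 20.0 in bleomycin, 18.7, 20.1, 17.0 and 17.4 in doxorubicin and 29.5, 29.8, 24.6 and 23.0 in IL-1β. Both drug groups were below every vehicle library, but here they overlapped with each other. Mcm7 fell by 0.57 ± 0.09 (SE, log2) in bleomycin (adjusted p = 5.45e-05) and by 0.67 ± 0.09 in doxorubicin (adjusted p = 7.96e-06), and the drugs differed by -0.10 ± 0.09 (adjusted p = 0.497). Of the other subunits, Mcm6 went from 29.0 ± 2.97 FPKM (mean ± SD, n = 4) in vehicle to 15.98 ± 0.629 in bleomycin and 9.58 ± 1.00 in doxorubicin, a 3.03-fold lower mean. Mcm2 went from 21.7 ± 1.46 to 12.5 ± 0.931 and 7.44 ± 0.992 FPKM. Mcm3 and Mcm4 fell by 1.34 and 1.10 (log2) in doxorubicin. Mcm2, Mcm4 and Mcm6 were also called lower in IL-1β, Mcm6 with a mean of 21.3 ± 0.750 FPKM (difference -0.43 ± 0.08, adjusted p = 0.000271).

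**Figure D4:**
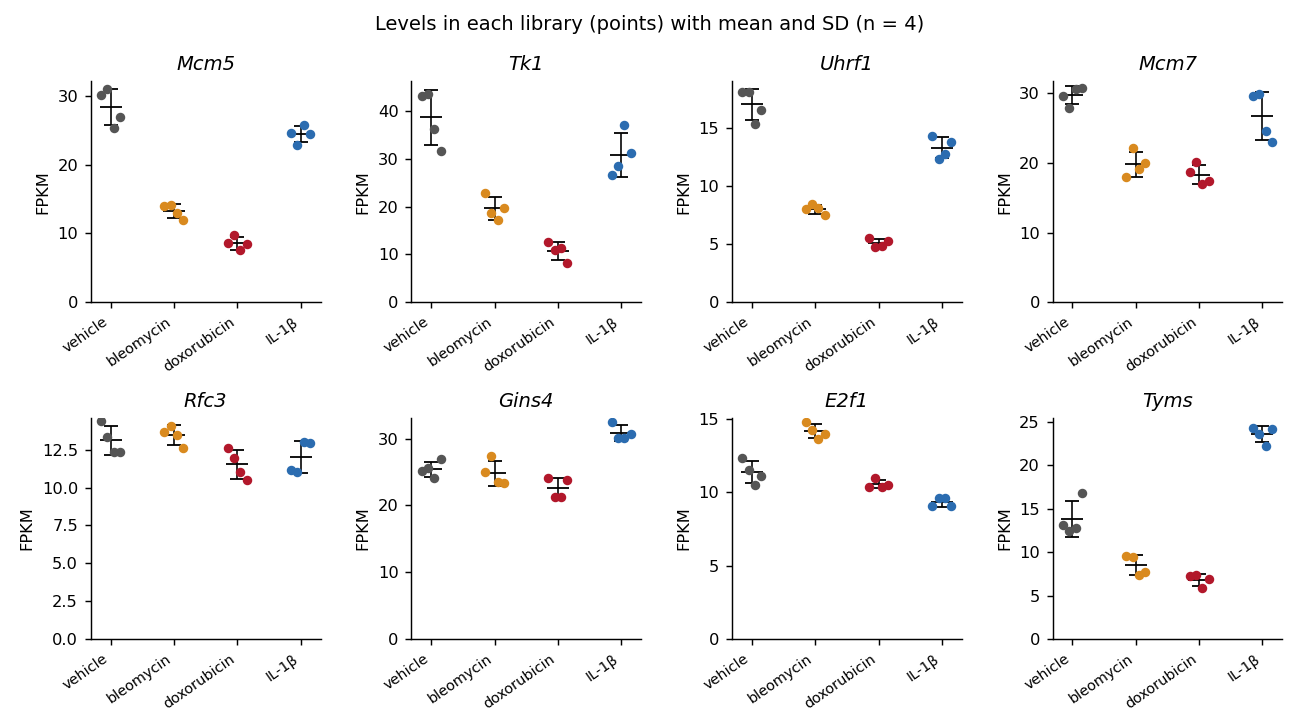
FPKM of 8 genes in each of the 4 libraries of a group (points), with the group mean and SD as bars, on axes from 0. Mcm5, Tk1 and Uhrf1 step down from vehicle to bleomycin to doxorubicin without overlap, Mcm7 steps down once, Rfc3 differs little between groups, Gins4 and Tyms are highest in IL-1β, and E2f1 is highest in bleomycin.

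The 10 genes of origin licensing and firing include the GINS complex, whose members moved by unequal amounts. Among the 10, 8 were called lower in bleomycin and all 10 in doxorubicin. GINS1 to GINS4 form a ring of 4 that links MCM to the leading-strand polymerase. Gins1 (ENSMUSG00000027454.10, chromosome 2, 150905400 to 150931280) stood at 8.03, 9.52, 4.82 and 8.02 FPKM in vehicle, 3.90, 3.14, 3.36 and 2.87 in bleomycin, 2.25, 2.82, 2.12 and 2.24 in doxorubicin and 8.27, 8.30, 5.79 and 8.19 in IL-1β. Vehicle library 3 was the lowest of its group, yet it too lay above every bleomycin library, and these above every doxorubicin library. Gins1 was 2.29 times lower in bleomycin (-0.96 ± 0.15, adjusted p = 9.15e-05) and 3.22 times lower in doxorubicin (-1.33 ± 0.15, adjusted p = 2.9e-06).

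Gins4 (ENSMUSG00000031546.6, chromosome 8, 23226616 to 23237659), its partner in the ring, differed least of the 10 from vehicle in both drugs. Its levels were 25.2, 25.5, 24.2 and 26.9 FPKM in vehicle, 25.1, 27.4, 23.5 and 23.3 in bleomycin, 24.1, 21.2, 21.3 and 23.8 in doxorubicin and 32.6, 30.1, 30.1 and 30.8 in IL-1β. Bleomycin overlapped with vehicle, doxorubicin lay just below vehicle, and all IL-1β libraries were above all others. In bleomycin the difference was -0.04 ± 0.06 (adjusted p = 0.662). Gins4 fell by 0.17 ± 0.06 in doxorubicin (adjusted p = 0.0371), a call that ended with no filter, with the fit over the compared groups alone and without any of vehicle replicates 1, 2 and 4 or doxorubicin replicates 2 and 3 (adjusted p up to 0.109 with 1 library left out). It rose by 0.27 ± 0.06 in IL-1β (adjusted p = 0.00213). Gins3 was not called in bleomycin either, at -0.16 ± 0.08 (adjusted p = 0.101, and 0.0268 without vehicle replicate 3; it was also called lower under both other scalings), and fell by 0.30 in doxorubicin, whereas Gins2 fell by 0.46 and 0.83 in the drugs.

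The loading factors were called lower in both drugs. ORC1, the subunit of the origin recognition complex whose level swings with the cycle, was read at 3.02 ± 0.572 FPKM (mean ± SD) in vehicle, 1.41 ± 0.280 in bleomycin and 1.09 ± 0.0590 in doxorubicin, a 2.78-fold lower mean. For Cdc6, which recruits CDT1 to the origin, the means were 3.08 ± 0.292, 1.80 ± 0.166 and 0.970 ± 0.135 FPKM, so that doxorubicin left it at the edge of the filter. Cdt1, which brings MCM, fell by 0.68 and 1.02 (log2), and Orc6, another origin recognition subunit, by 0.50 and 0.77. The Orc6 call in bleomycin (adjusted p = 0.0133) ended without vehicle replicate 1 (adjusted p = 0.0519). Cdc45 and Mcm10, which activate the loaded helicase, were lower in bleomycin by factors of 1.90 and 1.96 and in doxorubicin by 2.52 and 2.24.

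All 8 polymerase and primase genes were called lower in both drugs, beside 19.0% of all tested genes in bleomycin and 22.8% in doxorubicin. Pold1 (ENSMUSG00000038644.14, chromosome 7, 44532746 to 44548849), the catalytic subunit of the lagging-strand polymerase delta, differed most in doxorubicin. It stood at 11.5, 11.5, 11.1 and 12.9 FPKM in vehicle, 8.01, 8.19, 7.21 and 6.42 in bleomycin, 4.70, 4.65, 3.26 and 3.76 in doxorubicin and 8.33, 7.87, 8.72 and 12.4 in IL-1β. Vehicle, bleomycin and doxorubicin formed 3 separate steps, while IL-1β library 4 reached the vehicle range and the other IL-1β libraries did not. Pold1 fell by 0.60 ± 0.13 in bleomycin (adjusted p = 0.001) and by 1.33 ± 0.13 in doxorubicin (adjusted p = 2.78e-07). Its IL-1β difference was -0.32 ± 0.13 (adjusted p = 0.0492), just past the threshold, and that call ended under 12 of the alternatives run, among them leaving out any 1 vehicle library or any of IL-1β replicates 1 to 3 (adjusted p up to 0.143).

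Prim2 (ENSMUSG00000026134.11, chromosome 1, 33453810 to 33669795), the large primase subunit, differed least in doxorubicin. Its levels were 11.0, 9.91, 10.6 and 12.3 FPKM in vehicle, 7.94, 9.33, 8.64 and 7.75 in bleomycin, 7.41, 7.51, 7.15 and 7.58 in doxorubicin and 9.59, 8.65, 8.18 and 9.94 in IL-1β. Again the vehicle, bleomycin and doxorubicin libraries did not overlap, although the steps were small. Prim2 fell by 0.34 ± 0.08 in bleomycin (adjusted p = 0.00152) and 0.50 ± 0.08 in doxorubicin (adjusted p = 4.58e-05). Prim1, the catalytic primase subunit, was 2.52 times lower in doxorubicin, against 1.48 for Prim2. The catalytic subunits Pola1 and Pole fell by 0.99 and 0.81 there, and the accessory subunits Pola2, Pold2 and Pole2 by 0.58, 1.12 and 1.07.

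The 9 genes of the clamp, its loader, the single-strand binding protein RPA and Okazaki fragment joining counted 6 called lower in bleomycin and 3 not called. In doxorubicin 7 were called lower. DNA ligase 1, encoded by Lig1 (ENSMUSG00000056394.17, chromosome 7, 13277283 to 13311433), seals the fragments of the lagging strand and differed most in doxorubicin. Lig1 stood at 17.5, 17.4, 13.3 and 14.9 FPKM in vehicle, 8.96, 9.78, 8.98 and 7.97 in bleomycin, 6.40, 6.62, 5.26 and 7.63 in doxorubicin and 16.3, 14.3, 13.3 and 15.8 in IL-1β. Its 3 steps did not overlap, and IL-1β spanned nearly the vehicle range. It fell by 0.75 ± 0.10 (adjusted p = 2.42e-05) in bleomycin and 1.17 ± 0.10 (adjusted p = 1.71e-07) in doxorubicin.

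Rfc3 (ENSMUSG00000033970.15, chromosome 5, 151642756 to 151651242), a clamp loader subunit, passed the test in no comparison, although its window above holds a pair of E2F-type matches at the start. Its values were 14.4, 13.3, 12.4 and 12.3 FPKM in vehicle, 13.7, 14.1, 13.5 and 12.6 in bleomycin, 12.6, 11.98, 11.0 and 10.5 in doxorubicin and 11.1, 11.1, 13.0 and 12.9 in IL-1β. All 4 groups overlapped except bleomycin with the slightly lower doxorubicin libraries, which met at their edges. The differences from vehicle were 0.04 ± 0.07 in bleomycin (adjusted p = 0.707, with -0.011 under median-of-ratios scaling and -0.023 under quantile normalization), -0.17 ± 0.07 in doxorubicin (adjusted p = 0.0666) and -0.12 ± 0.07 in IL-1β (adjusted p = 0.226). Without doxorubicin replicate 1 the doxorubicin difference passed (adjusted p = 0.0378). The loader subunits Rfc4 and Rfc5 fell by 1.12 and 0.86 in doxorubicin and by 0.66 and 0.43 in bleomycin.

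Pcna, the clamp, was one of the most abundant of the 45 per length and went from 44.5 ± 4.22 FPKM in vehicle to 35.8 ± 2.61 in bleomycin and 28.1 ± 0.862 in doxorubicin, differences of -0.31 ± 0.07 and -0.64 ± 0.07. RPA coats single-stranded DNA as a trimer. Rpa2 and Rpa3 fell by 0.30 and 0.40 in bleomycin and by 0.62 and 0.72 in doxorubicin, and Rpa1, the large subunit, fell by 0.54 in doxorubicin (adjusted p = 0.00369). In bleomycin Rpa1 differed by -0.15 ± 0.14 (adjusted p = 0.397), and the drugs differed by -0.39 ± 0.14 for it (adjusted p = 0.0823). Fen1, the flap nuclease that trims Okazaki fragments, had the largest standard error of the 45. Fen1 stood at 14.2, 13.2, 10.9 and 4.70 FPKM in vehicle, 10.2, 3.38, 7.74 and 1.84 in bleomycin, 7.66, 7.69, 6.79 and 6.06 in doxorubicin and 5.02, 11.99, 12.5 and 12.1 in IL-1β. Vehicle library 4, bleomycin libraries 2 and 4 and IL-1β library 1 were far below their groups, and no comparison of it was called (bleomycin -0.90 ± 0.39, adjusted p = 0.0728). Without vehicle replicate 4, or without bleomycin replicate 1 or 3, Fen1 was called lower in bleomycin (adjusted p down to 0.0179).

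Genes of nucleotide supply were called lower in both drugs, all 5 of 5, beside 19.0% of all tested genes in bleomycin and 22.8% in doxorubicin. Tk1 (ENSMUSG00000025574.13, chromosome 11, 117815526 to 117826092), the thymidine kinase of S phase, had the largest difference of all 45 genes in doxorubicin. It stood at 43.1, 43.6, 36.2 and 31.6 FPKM in vehicle, 22.9, 18.7, 17.2 and 19.7 in bleomycin, 12.6, 10.9, 11.2 and 8.15 in doxorubicin and 26.6, 28.4, 37.1 and 31.2 in IL-1β. All doxorubicin libraries were below all bleomycin libraries and these below all vehicle libraries, with IL-1β overlapping vehicle. The mean of Tk1 was 1.97 times lower in bleomycin (-0.94 ± 0.13, adjusted p = 3.17e-05) and 3.60 times lower in doxorubicin (-1.76 ± 0.13, adjusted p = 2.57e-08).

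Rrm2 (ENSMUSG00000020649.11, chromosome 12, 24708241 to 24714146), the small subunit of ribonucleotide reductase and the most abundant of the 45 per length, differed least of the 5 from vehicle in both drugs. Its levels were 84.9, 77.9, 59.8 and 78.0 FPKM in vehicle, 60.9, 62.4, 56.2 and 51.6 in bleomycin, 64.0, 59.2, 54.4 and 58.1 in doxorubicin and 81.3, 80.0, 73.4 and 76.5 in IL-1β. The third vehicle library lay within the range of both drug groups and the other vehicle libraries above both. Rrm2 fell by 0.37 ± 0.09 in bleomycin (adjusted p = 0.00366) and by 0.34 ± 0.09 in doxorubicin (adjusted p = 0.00602), and the drugs did not separate (0.03 ± 0.09, adjusted p = 0.889). Rrm1, the large subunit, went from 37.9 ± 4.27 to 23.9 ± 1.27 and 18.6 ± 1.12 FPKM. Dut, which removes dUTP, went from 37.0 ± 1.54 to 23.6 ± 0.872 and 15.0 ± 0.985 FPKM, a 2.47-fold lower mean in doxorubicin.

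Tyms (ENSMUSG00000025747.12, chromosome 5, 30058202 to 30073617), thymidylate synthase, makes dTMP and moved in opposite directions under the drugs and the cytokine. It stood at 13.1, 12.4, 12.8 and 16.9 FPKM in vehicle, 9.51, 9.43, 7.39 and 7.69 in bleomycin, 7.20, 7.33, 5.82 and 6.89 in doxorubicin and 24.3, 23.6, 22.2 and 24.2 in IL-1β. Every IL-1β library was above every vehicle library, and every drug library was below. Tyms fell by 0.64 ± 0.10 in bleomycin (adjusted p = 7.38e-05) and 0.92 ± 0.10 in doxorubicin (adjusted p = 1.39e-06), and rose by 0.74 ± 0.10 in IL-1β (adjusted p = 1.49e-05), where its mean was 1.71 times that of vehicle. As shown above, its promoter window holds none of the E2F-type letters.

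Chromatin has to be copied with the DNA, and all 4 genes of that step were called lower in both drugs. Of all tested genes, 19.0% were in bleomycin and 22.8% in doxorubicin. Uhrf1 (ENSMUSG00000001228.14, chromosome 17, 56303321 to 56323486), which brings the methyltransferase DNMT1 to hemimethylated DNA, stood at 18.2, 18.2, 15.4 and 16.6 FPKM in vehicle, 8.05, 8.49, 8.10 and 7.53 in bleomycin, 5.51, 4.79, 4.89 and 5.29 in doxorubicin and 14.3, 12.3, 12.8 and 13.9 in IL-1β. All 4 groups were separate, in the order vehicle, IL-1β, bleomycin and doxorubicin. Uhrf1 was 2.12 times lower in bleomycin (it fell by 1.00 ± 0.07 on the log2 scale, adjusted p = 1.44e-08), 3.33 times lower in doxorubicin (-1.56 ± 0.07, adjusted p = 7.12e-11) and fell by 0.33 ± 0.07 in IL-1β (adjusted p = 0.000926). Dnmt1 followed with means of 24.4 ± 1.58 FPKM in vehicle, 15.97 ± 0.566 in bleomycin, 11.3 ± 1.01 in doxorubicin and 19.6 ± 1.06 in IL-1β.

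Chaf1a and Chaf1b encode partners in CAF-1, the chaperone that sets histones on new DNA, and they parted in IL-1β. Chaf1a (ENSMUSG00000002835.9, chromosome 17, 56040439 to 56072289) stood at 5.70, 5.70, 4.99 and 5.51 FPKM in vehicle, 3.76, 3.84, 3.32 and 3.24 in bleomycin, 2.54, 2.22, 2.26 and 2.92 in doxorubicin and 4.68, 4.66, 4.42 and 5.12 in IL-1β. Chaf1b (ENSMUSG00000022945.12, chromosome 16, 93883901 to 93906115) stood at 9.20, 8.18, 8.06 and 8.61 in vehicle, 6.33, 5.50, 5.86 and 4.75 in bleomycin, 3.71, 3.53, 3.27 and 2.55 in doxorubicin and 12.5, 11.5, 12.3 and 12.2 in IL-1β. Both stepped down without overlap from vehicle to bleomycin to doxorubicin, but in IL-1β all Chaf1b libraries lay above vehicle while 1 Chaf1a library lay inside the vehicle range and the others below it. In doxorubicin Chaf1a fell by 0.90 ± 0.08 (adjusted p = 1.27e-07) and Chaf1b by 1.16 ± 0.09 (adjusted p = 3.2e-08). In bleomycin they fell by 0.51 (adjusted p = 6.11e-05) and 0.53 (adjusted p = 0.000167). In IL-1β Chaf1b rose by 0.46 ± 0.09 (adjusted p = 0.000566), and the difference of Chaf1a was -0.18 ± 0.08 (adjusted p = 0.0777).

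The regulators of S phase entry did not all move together: Ccne1 and E2f1 were called higher in bleomycin and not in doxorubicin, while Ccne2 was called lower in both. E2f1 (ENSMUSG00000027490.17, chromosome 2, 154559407 to 154569892), an activating E2F factor, stood at 12.3, 11.5, 10.5 and 11.1 FPKM in vehicle, 14.8, 14.2, 13.6 and 14.0 in bleomycin, 10.4, 11.0, 10.3 and 10.5 in doxorubicin and 9.05, 9.58, 9.57 and 9.06 in IL-1β. Every bleomycin library was above every library of the other groups, IL-1β was below them all, and doxorubicin overlapped the lower end of vehicle. E2f1 rose by 0.30 ± 0.05 in bleomycin (adjusted p = 0.00033) and fell by 0.26 ± 0.05 in IL-1β (adjusted p = 0.00112), and its difference in doxorubicin was -0.10 ± 0.05 (adjusted p = 0.162). The drugs themselves differed for E2f1, lower in doxorubicin by 0.39 ± 0.05 (adjusted p = 0.000289).

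Cyclin E binds CDK2 to start S phase and is made by Ccne1 and Ccne2. Ccne1 (ENSMUSG00000002068.16, chromosome 7, 38097984 to 38107534) stood at 13.3, 13.7, 12.2 and 12.4 FPKM in vehicle, 15.3, 15.1, 16.4 and 13.5 in bleomycin, 11.96, 10.7, 10.4 and 11.4 in doxorubicin and 12.9, 12.4, 14.3 and 11.7 in IL-1β. Ccne2 (ENSMUSG00000028212.16, chromosome 4, 11191351 to 11204779) stood at 8.63, 11.1, 8.07 and 12.6 in vehicle, 6.40, 5.94, 6.08 and 8.12 in bleomycin, 4.29, 2.67, 4.02 and 3.24 in doxorubicin and 8.92, 8.98, 7.15 and 8.98 in IL-1β. For Ccne1 the fourth bleomycin library lay inside the vehicle range and the others above it, and doxorubicin lay below vehicle. For Ccne2 bleomycin just met vehicle at its upper edge, and doxorubicin was below both. Ccne1 rose by 0.21 ± 0.07 in bleomycin (adjusted p = 0.024), a call that ended under median-of-ratios scaling, under quantile normalization and without any of vehicle replicates 3 and 4 or bleomycin replicates 1 and 3 (adjusted p up to 0.0803 with 1 library left out). It fell by 0.19 ± 0.07 in doxorubicin (adjusted p = 0.0347), a call that ended with no filter and without any of vehicle replicates 1 and 2 or doxorubicin replicates 2 and 3 (adjusted p up to 0.0965). The drugs differed for Ccne1 by -0.41 ± 0.07 (adjusted p = 0.0018). Ccne2 fell by 0.53 ± 0.14 in bleomycin (adjusted p = 0.00589) and 1.28 ± 0.14 in doxorubicin (adjusted p = 1.7e-06).

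Set directly against bleomycin, doxorubicin had lower levels of 28 of the 45 genes and higher levels of 0 (0 also at an unadjusted p under 0.05), beside 5.85% and 4.18% of all tested genes, and 17 were not called. The median log2 difference was -0.37, and -0.04 over all tested genes. The differences in this comparison use no vehicle library, but their standard errors and p-values come from the fit to all 16 libraries. With the fit over the 2 drug groups alone, the calls of Pola1, Prim1, Rfc4 and Rpa3 ended, and Cdc45, Gins2 and Rpa1 were called. Drug, exposure time and hyaluronidase cannot be told apart in this comparison. The lower calls included 5 of 6 helicase genes, 6 of 8 polymerase and primase genes, all 4 chromatin genes and all 3 regulators, but 1 of 10 licensing and firing genes, Cdc6 (-0.51 ± 0.09, adjusted p = 0.00137). Tk1 had the largest difference (-0.82 ± 0.13, adjusted p = 0.000956), followed by Ccne2 (-0.75 ± 0.14, adjusted p = 0.00296) and Pold1 (-0.74 ± 0.13, adjusted p = 0.0013). The calls of Pola1, Prim1, Rfc4, Rpa3, Pole2, Lig1 and Pola2 ended in at least 1 of the alternatives run. That of Pola1 ended without any 1 of the 8 drug libraries (adjusted p up to 0.132), and with 1 library left out the adjusted p reached 0.0772 for Prim1, 0.0873 for Rfc4, 0.107 for Rpa3, 0.0793 for Pole2, 0.0618 for Lig1 and 0.0512 for Pola2. Of the genes not called, Cdc45 and Cdt1 passed with 1 library left out, without doxorubicin replicate 2 (adjusted p = 0.0326) and without bleomycin replicate 4 (adjusted p = 0.0372). For the other 9 licensing and firing genes a missing call is not evidence of equal levels, since their differences ran from -0.37 to -0.13.

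In IL-1β the set moved little and in both directions: 15 of the 45 genes were called lower than in vehicle, beside 18.4% of all tested genes, 3 were called higher, beside 24.5%, and 27 were not called. Their median log2 difference was -0.10, and 0.03 over all tested genes. The 15 lower calls were Mcm2, Mcm4, Mcm6, Cdc6, Mcm10, Cdc45, Pola1, Prim2, Pold1, Pold2, Pole2, Rrm1, Uhrf1, Dnmt1 and E2f1. The lowest of them was Mcm6 at -0.43 ± 0.08 and no gene had fallen by 1, beside 1.76% of all tested genes. None of the 9 clamp, RPA and ligation genes was called by limma, 1 of them passing an unadjusted p under 0.05, with differences from -0.12 to 0.17. The 3 higher calls were Tyms, Chaf1b and Gins4, given above. The total FPKM of these libraries was above that of vehicle, and its part in these small differences was not tested. Under median-of-ratios scaling Mcm5, Tk1 and Chaf1a were also called lower, and under quantile normalization Mcm5, Mcm7, Tk1 and Chaf1a were. With 1 library left out, Tk1 (adjusted p down to 0.0272, without vehicle replicate 4 or IL-1β replicate 3) and Chaf1a (0.0494, without vehicle replicate 3) passed as lower. Dut (0.018, without IL-1β replicate 2 or 4), Pcna (0.0375, without vehicle replicate 1 or 2), Pola2 (0.0343, without IL-1β replicate 3) and Rpa3 (0.0273, without IL-1β replicate 4) passed as higher. Besides Pold1, the calls of Cdc45 and Prim2 ended with 1 library left out (adjusted p up to 0.122 and 0.0607), that of Cdc45 without vehicle replicate 1 or 4 or IL-1β replicate 3 or 4 and that of Prim2 without vehicle replicate 4 or IL-1β replicate 3.

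Both drugs were also set against IL-1β, the acute stress control. Bleomycin was lower for 35 genes and higher for 2 (E2f1 and Ccne1), beside 25.2% and 27.6% of all tested genes, with a median of -0.43 against 0.02 over all tested genes. Doxorubicin was lower for 42 and higher for 1 (E2f1), beside 29.2% and 25.1%, with a median of -0.78 against -0.03. Tyms gave the largest difference in both, -1.38 ± 0.10 in bleomycin (adjusted p = 9.58e-09) and -1.66 ± 0.10 in doxorubicin (adjusted p = 9.9e-10). E2f1 was 0.55 ± 0.05 higher in bleomycin (adjusted p = 3.72e-07) and 0.16 ± 0.05 higher in doxorubicin (adjusted p = 0.0198), the last a call that ended without doxorubicin replicate 2 (adjusted p = 0.0585). The higher call of Ccne1 in bleomycin ended without bleomycin replicate 3 or IL-1β replicate 4 (adjusted p up to 0.0645). Lower calls in bleomycin that ended with 1 library left out were those of Gins2 without bleomycin or IL-1β replicate 1 (adjusted p up to 0.0977), Orc6 without bleomycin replicate 3 or IL-1β replicate 1 (0.0621) and Rpa2 without IL-1β replicate 1 (0.088). In doxorubicin the lower calls of Gins3 and Ccne1 ended in 9 and 8 of 16 alternatives, among them several single libraries of both groups (adjusted p up to 0.119 and 0.12). Both comparisons share the 4 IL-1β libraries.

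Related genes changed by different amounts, and ratios between them give this per library: 4 ratios within a complex, 1 between the alternative cyclins E and 1 between the separate thymidylate enzymes Tyms and Tk1. The pairs below were picked after the values had been seen, so the ratios are a description with no test. FPKM of Mcm7 over the geometric mean of Mcm2 to Mcm6 was 1.19 ± 0.14 (mean ± SD, n = 4) in vehicle, 1.42 ± 0.14 in bleomycin, 2.06 ± 0.07 in doxorubicin and 1.28 ± 0.17 in IL-1β. All 4 doxorubicin libraries, at 1.97 to 2.15, were above every other library, of which the highest was 1.54. For Gins4 over Gins1 and Gins2 the ratio was 2.81 ± 0.54 in vehicle, 4.82 ± 0.39 in bleomycin, 6.05 ± 0.53 in doxorubicin and 3.48 ± 0.39 in IL-1β. Rfc3 over Rfc4 and Rfc5 was 1.17 ± 0.11, 1.84 ± 0.25, 2.25 ± 0.21 and 1.16 ± 0.14 in the same order. In both of these, every bleomycin and doxorubicin library was above every vehicle and IL-1β library. Ccne1 over Ccne2 was 1.32 ± 0.26, 2.32 ± 0.46, 3.23 ± 0.66 and 1.53 ± 0.32, and here the lowest bleomycin library (1.67) lay within the IL-1β range, which reached 2.00. Rrm2 over Rrm1, the pair of ribonucleotide reductase, was 1.98 ± 0.11, 2.42 ± 0.10, 3.16 ± 0.18 and 2.51 ± 0.16. Tyms over Tk1 was 0.369 ± 0.113, 0.435 ± 0.049, 0.651 ± 0.144 and 0.780 ± 0.133, the only 1 of the 6 in which IL-1β had the highest mean. A ratio shows unequal change of the genes and not which of them changed.

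**Figure D5:**
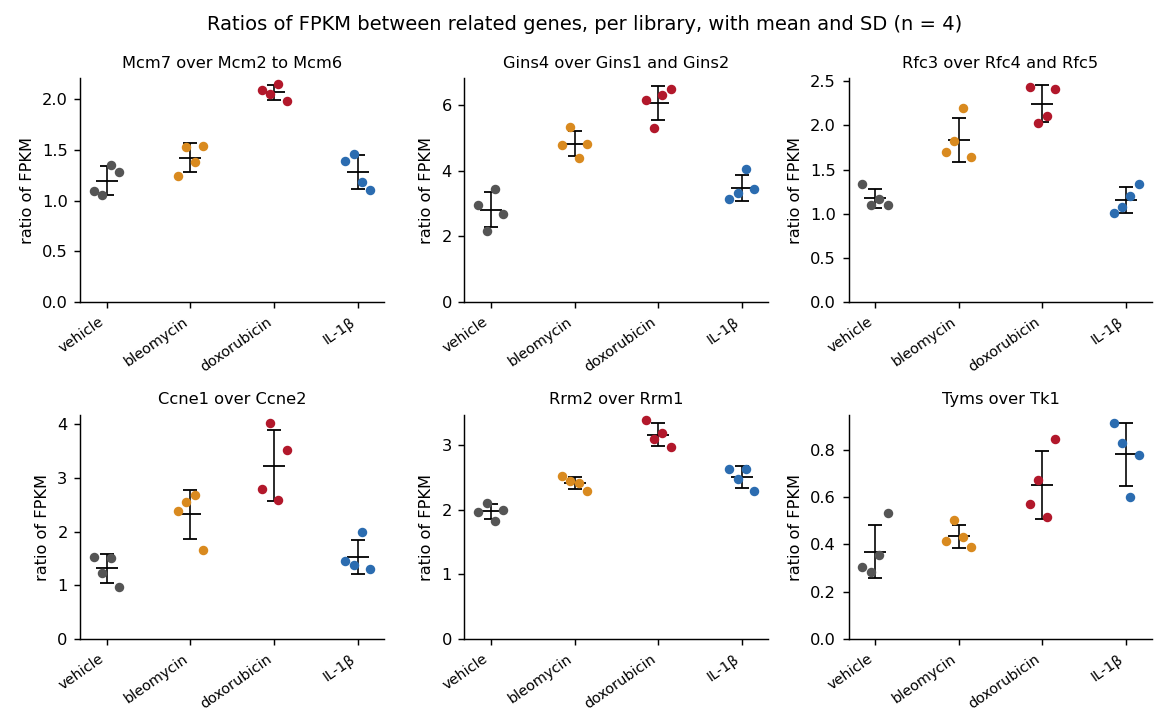
Each panel gives a ratio of FPKM between related genes per library (points, 4 per group) with the group mean and SD, on axes from 0, using the geometric mean where several genes form the denominator. In 5 panels the doxorubicin mean is the highest, and for Tyms over Tk1 the IL-1β mean is.

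Further genes of the pathway, 61 in a list written for their known role, were tested beside the 45, and all 61 passed the filter. In bleomycin 38 were called lower and 6 higher, beside 19.0% and 27.9% of all tested genes, with a median of -0.34, and in doxorubicin 44 were called lower and 4 higher, beside 22.8% and 25.4%, with a median of -0.55. Those that fell by at least 1 (log2) in doxorubicin, beside 1.87% of all tested genes, were 15: Gmnn, Cdc7, Dbf4, Mtbp, Wdhd1, Clspn, Chtf18, Pclaf, Top2a, Asf1b, Nasp, E2f7, E2f8, Skp2 and Ccna2. Ccna2, cyclin A2 of S and G2 phase, went from 32.4 ± 3.04 FPKM (mean ± SD) in vehicle to 15.4 ± 0.564 in bleomycin and 7.41 ± 0.677 in doxorubicin (log2 -1.99, adjusted p = 1.99e-11), beside -1.76 for Tk1, the largest of the 45. Cdc7 and Dbf4, the kinase pair that fires licensed origins, fell by 1.09 and 1.06. E2f7 and E2f8, repressing E2F factors, fell in doxorubicin by 1.11 and 1.26, and in IL-1β by 0.60 and 0.99 (adjusted p = 0.000391 and 1.75e-07).

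Among the context genes called higher was Cdkn1a, the p21 inhibitor of cyclin E and CDK2, which was read at 122 ± 4.55 FPKM in vehicle, 302 ± 11.2 in bleomycin, 327 ± 17.9 in doxorubicin and 167 ± 4.92 in IL-1β. It rose by 1.30, 1.42 and 0.46 (adjusted p = 2.3e-11, 9.92e-12 and 1.33e-06). The RB family members differed from one another. Rb1 rose by 0.57 in bleomycin and 0.56 in doxorubicin (adjusted p = 9.65e-05 and 9.58e-05), and Rbl2, which encodes p130, by 0.79 and 0.71 (adjusted p = 1.9e-05 and 4.52e-05). Rbl1, which encodes p107, fell by 0.35 and 0.77. Pold4, the small subunit of polymerase delta, rose by 0.43 and 0.55, against the falls of Pold1 and Pold2. The other higher calls in bleomycin were Rrm2b, the p53-driven ribonucleotide reductase subunit, at 0.32 (adjusted p = 0.0253) and Tfdp2, an E2F partner, at 0.53 (adjusted p = 0.0253). In IL-1β 21 of the 61 were called lower and 5 higher, beside 18.4% and 24.5% of all tested genes, the higher ones being Cdkn1a, Rb1, Pold4, Pole4 and Rnaseh2c, the last a subunit of ribonuclease H2 (0.72, adjusted p = 0.000523).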

How the data were processed

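Poly(A) RNA of 16 libraries of cultured articular chondrocytes, 4 in each of 4 groups, was sequenced with a stranded library kit, per the labels' protocols. The deposited tables hold 1 library each and give FPKM values for 55450 genes that the authors computed. Trimmomatic, STAR and the build GRCm38 are named, without versions, per the submitters' processing notes. How FPKM was computed, on which annotation and with what treatment of reads shared with retrocopies or paralogs is not given in the sources used here. Groups come from the labels.

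Values were analysed as log2(FPKM + 1). A gene was tested if 4 or more of the 16 libraries had it at 1 FPKM or above (12976 genes, all 45 members included). The fit used limma 3.58.1 in R 4.3.3 with a mean-variance trend, all 16 libraries and 12 residual degrees of freedom, and p-values were adjusted by Benjamini-Hochberg within each of 6 comparisons. It was tested on simulated data first. The pseudocount of 1 FPKM makes log2 differences of low genes too small, and differences of means are given as ratios of FPKM. The spacing of low FPKM values gave an estimated depth of 15900000 to 22100000 fragments per library. With that depth only 60.0% to 64.4% of low values were whole fragments to within 0.1, so counts were not recovered and no count test was run. This depth and the 4 libraries per group limit the precision.

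The members, their roles, the 61 further pathway genes and the marker lists were chosen with earlier results of these data known. Values in every library are given by rule for the member with the largest and the one with the smallest doxorubicin difference in each role, and for members called higher against vehicle, with Fen1 added after its values were seen. Alternatives were a pseudocount of 0.1 or 0.01, no filter, a filter on the mean, median-of-ratios scaling, quantile normalization, the replicate number as a block, a fit over the compared groups only and leaving out each library. Promoter windows are those of RefSeq on GRCm38.p6, and coordinates those of GENCODE on GRCm38. Other steps used pandas 2.3.3 and numpy 2.4.6 in Python 3.11.15, with matplotlib 3.10.9 for figures.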

Additional observations from a re-analysis of the deposited data

Results flagged for a closer look

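Of 72 sets of 4 values checked (the members given in every library, in each group, and the library medians), 3 held a library far from the others of its group, by Dixon's 95% criterion on the gap to its nearest neighbour over the group's range. Chance alone gives that in about 1 in 20 such sets. Gins1 was lowest at 5.79 FPKM in IL-1β replicate 3, against 8.19 to 8.30 in the others. Ccne2 was lowest in the same library at 7.15 FPKM, against 8.92 to 8.98. Tyms was highest at 16.9 FPKM in vehicle replicate 4, against 12.4 to 13.1 in the others, and that value was still below every IL-1β library.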

How the results depend on the processing

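In all alternatives run, no member called in a comparison changed direction. The median log2 difference of the 45 genes moved by more than the spread between libraries under quantile normalization in bleomycin against vehicle (-0.66). In doxorubicin against vehicle it moved under a pseudocount of 0.1 (-1.13), one of 0.01 (-1.16) and quantile normalization (-1.05). In doxorubicin against bleomycin it moved under a pseudocount of 0.1 (-0.43) or 0.01 (-0.45), median-of-ratios scaling (-0.33) and quantile normalization (-0.34), and in doxorubicin against IL-1β under a pseudocount of 0.1 (-0.89) or 0.01 (-0.89) and median-of-ratios scaling (-0.74). A smaller pseudocount enlarges differences of low genes by construction. For the rest the cause was not tested. With 1 library left out, the median ranged from -1.05 to -0.93 in doxorubicin against vehicle, from -0.41 to -0.35 in doxorubicin against bleomycin, from -0.81 to -0.77 in doxorubicin against IL-1β, from -0.63 to -0.57 in bleomycin against vehicle, from -0.45 to -0.40 in bleomycin against IL-1β and from -0.15 to -0.06 in IL-1β against vehicle. The number called higher was 1 in bleomycin against vehicle under median-of-ratios scaling and under quantile normalization, where Ccne1 was lost. Leaving out 1 library, it ranged from 1 to 2 there, from 1 to 2 in bleomycin against IL-1β, from 0 to 1 in doxorubicin against IL-1β and from 3 to 5 in IL-1β against vehicle. The number called lower ranged from 37 to 39 in bleomycin, 40 to 43 in doxorubicin and 13 to 16 in IL-1β against vehicle, from 23 to 27 in doxorubicin against bleomycin, and from 33 to 36 and 40 to 41 in bleomycin and doxorubicin against IL-1β.

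A change of sign was looked for only in the members given in every library by rule, not in the others. Among them, the differences that changed sign were all uncalled and near 0 in the main fit. Gins1 changed sign in IL-1β (-0.00544 under median-of-ratios scaling, -0.021 under quantile normalization, -0.15 to 0.14 with 1 library left out). Rfc3 did in bleomycin (-0.011 and -0.023 under these scalings). Rrm2 did in IL-1β (-0.062 under quantile normalization, -0.045 to 0.12 with 1 library left out). With 1 library left out, Rrm2 also did in doxorubicin against bleomycin (-0.023 to 0.067) and Ccne1 in IL-1β (-0.056 to 0.035). With the replicate block, 38, 42 and 15 genes were called lower against vehicle in bleomycin, doxorubicin and IL-1β, and 29 in doxorubicin against bleomycin, where Cdc45 was added. In IL-1β the block ended the call of Pold1 and added Mcm5 and Dut. The labels tie no number to a shared animal or day. Correlations of the deviations from the group means ran from -0.023 to 0.214 over 24 same-numbered pairs (median 0.052) and from -0.195 to 0.099 over 72 others (median -0.023). For 13 of the 16 libraries the mean correlation with other groups was highest for the libraries of their own number. Same-numbered libraries thus shared somewhat more than others, but what they share is not known. The main fit therefore did not pair the libraries, and the replicate block is given as an alternative. Over all tested genes, the share of calls that were higher moved from 59.5% to 48.3% in bleomycin and from 57.1% to 44.0% in IL-1β against vehicle under quantile normalization. In doxorubicin against bleomycin it moved from 41.7% to 62.4% under median-of-ratios scaling and 53.4% under quantile normalization. Depth and gene length limit the low genes Cdc6, Orc1, Pole and Pola1, at 0.970 to 2.01 FPKM on average in doxorubicin.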

Other observations

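Among the members not given in every library by rule, the same check of single libraries picked out Gins2 in IL-1β (13.1 FPKM), Pola1 in doxorubicin (1.62 FPKM), Pold2 in vehicle (17.0 FPKM) and Fen1 in IL-1β (5.02 FPKM). Pole4, a small polymerase epsilon subunit, was at 25.1 ± 0.788 FPKM in vehicle, 23.1 ± 1.26 in bleomycin, 19.0 ± 2.92 in doxorubicin and 34.7 ± 1.01 in IL-1β (log2 0.45, adjusted p = 0.00034, limma). Samhd1, which breaks down deoxynucleotides, was lower in all 3 treatments, at 45.3 ± 3.31 FPKM in vehicle, 27.8 ± 1.66 in bleomycin, 30.6 ± 1.32 in doxorubicin and 26.3 ± 1.70 in IL-1β (adjusted p = 3.43e-07, 2.76e-06 and 6.96e-08). The origin recognition subunits Orc3, Orc4 and Orc5 differed by -0.10, -0.10 and -0.17 in doxorubicin and were not called (adjusted p = 0.274, 0.464 and 0.0767), while Orc2 fell by 0.60 (adjusted p = 8.12e-07).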
